A study of Homo sapiens with 12 samples.

Results

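The genes described here are 10 amino acid transporter genes, SLC7A1, SLC7A5, SLC7A8, SLC7A11, SLC3A2, SLC1A4, SLC1A5, SLC38A2, SLC38A4 and SLC6A20, chosen by symbol from a bead array with 47314 probes. Genes, lists and tests were chosen with earlier results of these data known. Counts of the 10 genes beside shares of all genes therefore describe a chosen set and do not test it. The 10 genes had 15 probes, of which 13 were detected, with a detection p-value under 0.05, on at least 3 of the 12 arrays. All 10 genes were therefore among the 12566 genes tested, each through its brightest kept probe, and 6 of them were detected on all 12 arrays. The cells were Caco-2, a line long established from a human colorectal cancer, in 4 groups of 3 arrays. The groups were a line whose label gives it a doxycycline-induced short hairpin RNA (shRNA) against the nuclear receptor LRH-1, with 5 µg/ml doxycycline for 96 hours, the same line without doxycycline, a control line with that treatment, and the control line without it. NR5A2 encodes LRH-1. Titles call the control cells native, while the genotype label gives them a non-silencing vector, and the labels do not settle which is right. The series' design mentions separate hairpins cloned into a vector that also carries the red fluorescent marker TurboRFP, and the labels do not say which hairpin was on the arrays. No label says whether the replicates were grown as separate cultures, so the p-values cover the spread between these arrays, which may be technical. All groups grew in medium with added nonessential amino acids.

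Amino acid transporters of the plasma membrane set how much amino acid a cell can take up, keep or trade for another. SLC3A2 (CD98, 4F2hc) is a heavy chain that carries light chains to the cell surface, among them SLC7A5 (LAT1, large neutral amino acids), SLC7A8 (LAT2, a neutral amino acid exchanger of the basolateral side of epithelia) and SLC7A11 (xCT, which takes up cystine in exchange for glutamate). SLC7A1 (CAT1) takes up arginine and lysine. SLC1A4 (ASCT1) and SLC1A5 (ASCT2) exchange small neutral amino acids, and SLC1A5 is a main route for glutamine in many cancer lines. SLC38A2 (SNAT2) and SLC38A4 (SNAT4) take up neutral amino acids with sodium, and SLC38A4 is best known from liver. SLC6A20 (SIT1) takes up proline and other imino acids at the apical side of intestine and kidney. Many of these genes are known targets of ATF4, a transcription factor that is made when cells lack amino acids or when proteins misfold.

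Array medians lay between 251 and 386 intensity units, and 41.2% to 44.7% of probes were detected per array. Replicates correlated at 0.987 to 0.993 across genes. NR5A2, the gene that the hairpin was made to silence, averaged a log2 signal of 10.67 in the shRNA-labelled line with doxycycline, against 10.17 without it. Control-line arrays averaged 11.05 with doxycycline, against 10.16 without it. It was thus higher with doxycycline in both lines (limma adjusted p = 0.00995 and 0.000384), against the label, and its responses did not differ past adjustment (-0.39, adjusted p = 0.231). With median scaling of the arrays the difference of NR5A2 in the shRNA-labelled line was 0.40 and missed the threshold (adjusted p = 0.254). Of 10 epithelial and intestinal markers, 9 were tested and all 9 were detected on every array (CDX1 was not tested), with a summed normalized signal of 127479 to 140533. Of 8 fibroblast markers 5 were tested, and their summed normalized signal was 5105 to 5766 in the shRNA-labelled line with doxycycline, against 3586 to 3927 without it. For the control line that sum was 5876 to 6908 with doxycycline, against 3627 to 3997 without it. The 2 tested leukocyte markers (CD68 and CD14) summed to 4180 to 4415 in the shRNA-labelled line with doxycycline and 5344 to 5862 without it, against 5463 to 5551 and 6320 to 7408 in the control line. PECAM1, the only one of 4 endothelial markers tested, lay between 376 and 616 on all arrays. PTPRC, CD3E, COL1A2, COL3A1, THY1, VWF, CDH5 and KDR were among the markers not tested. The fibroblast sum was thus higher and the leukocyte sum lower with doxycycline in both lines, but a sum follows its brightest genes. Of the 5 fibroblast markers, 3 were higher and 2 lower with doxycycline in the shRNA-labelled line, and 5 were higher in the control line. Of the 2 leukocyte markers, 2 were lower in the shRNA-labelled line, and 1 was higher and 1 lower in the control line. Untreated fibroblast sums overlapped between the lines, while leukocyte sums were lower in the shRNA-labelled line under either treatment. PECAM1 averaged lower with doxycycline in the shRNA-labelled line (-0.36 on the log2 scale) and higher with it in the control line (0.35), and neither difference passed. The part of these markers in the results was not tested. All levels below are normalized log2 signals, and all differences are on the log2 scale. A lower signal cannot tell fewer cells that express a gene from less RNA per cell.

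**Figure D1:**
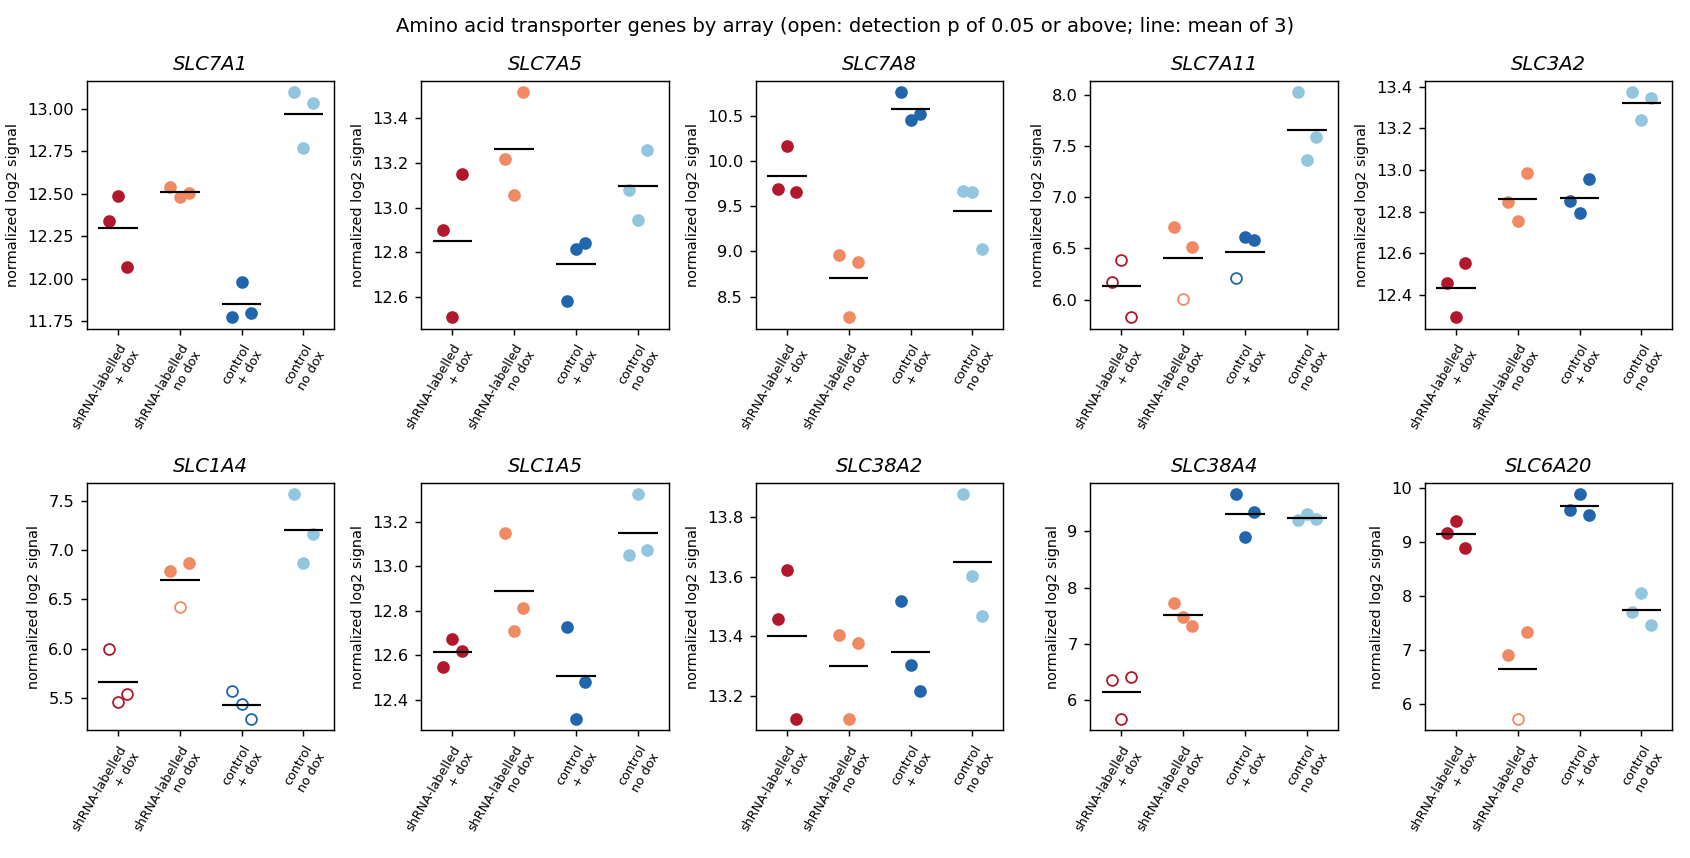
Normalized log2 signal (y axis) of the 10 transporter genes in each of the 12 arrays, by group (x axis), with open points where the probe was not detected and a line at the mean of 3. The SLC38A4 panel shows 3 open points between 5.66 and 6.42 in the shRNA-labelled line with doxycycline, against 8.90 to 9.66 in the control line with it, and the SLC6A20 panel shows both doxycycline groups above both untreated groups.

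The genes differed in how far their group means lay apart. The group means of SLC6A20 spanned 3.01, those of SLC7A8 1.87 and those of SLC7A1 1.12. In the background-corrected signals the span of SLC38A4 was at least 2.84 and that of SLC1A4 at least 0.75, since their lowest groups were undetected. SLC3A2 spanned 0.89, SLC1A5 0.64, SLC7A5 0.51 and SLC38A2 0.35. The lowest group of SLC7A11 was undetected too, and no span is given for it. Because these values are probe signals, a level of one gene was not set against that of another.

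The first comparison asked how the genes responded to doxycycline within each line. In the shRNA-labelled line 5 of the 10 genes passed the test. SLC7A8 and SLC6A20 rose with doxycycline, and SLC3A2, SLC1A4 and SLC38A4 fell. Among all 12566 genes 11.5% passed in this comparison, 6.49% higher and 5.01% lower. Of the 10, 7 passed in the control line, with SLC7A8 and SLC6A20 higher and SLC7A1, SLC7A11, SLC3A2, SLC1A4 and SLC1A5 lower, against 16% of all genes, 7.88% higher and 8.11% lower. The median difference of the 10 genes was -0.28 for the shRNA-labelled line, beside -0.02 for all genes, and -0.40 for the control line, beside -0.01 for all genes. SLC7A8, SLC6A20, SLC3A2 and SLC1A4 passed in both lines, each in the same direction in both. With median scaling of the arrays the split in the control line became 2 higher and 3 lower. SLC3A2 and SLC1A5 then missed the threshold, at adjusted p = 0.210 and 0.0779. SLC1A5 kept its call with every other setting and with each array left out in turn.

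**Figure D2:**
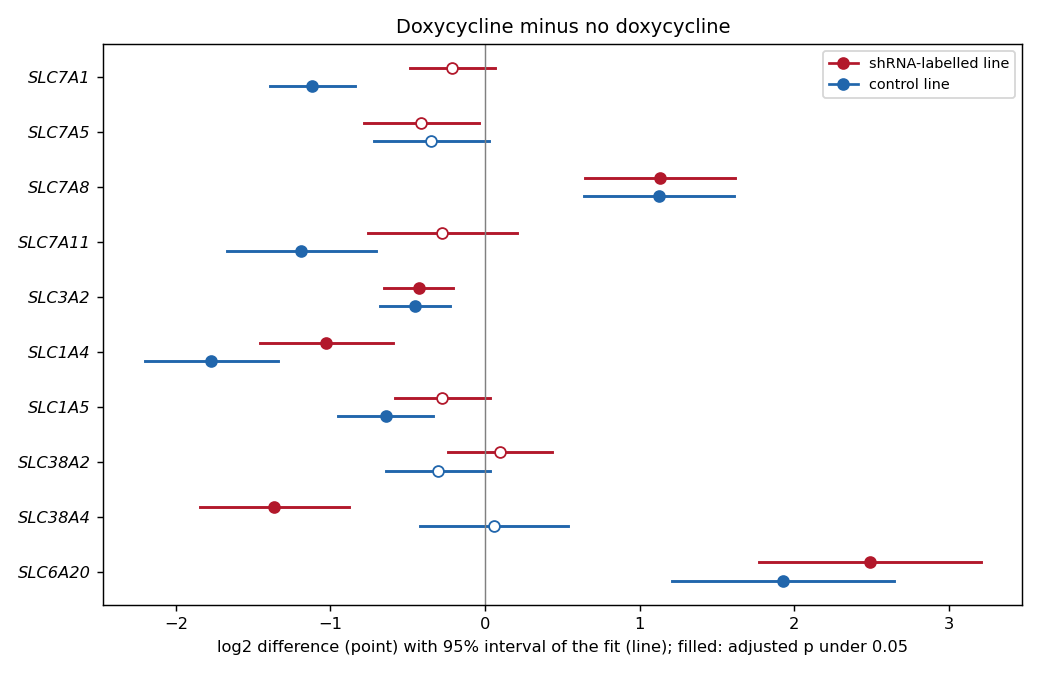
Log2 difference between doxycycline and no doxycycline (x axis, point) with the 95% interval of the fit (line) for the 10 genes (y axis), red for the shRNA-labelled line and blue for the control line, filled where the adjusted p was under 0.05. SLC6A20 and SLC7A8 lie to the right of 0 in both lines, SLC1A4 and SLC3A2 to the left in both, and SLC38A4 at 0.06 for the control line. Its point for the shRNA-labelled line, like that of SLC1A4 in both lines, rests on an undetected group and is a fitted size only.

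The heavy chain SLC3A2 was lower with doxycycline in both lines. Its brighter probe, ILMN_1726456, read 12.46, 12.29 and 12.55 in the shRNA-labelled line with doxycycline, against 12.85, 12.75 and 12.98 without it. Arrays of the control line read 12.85, 12.79 and 12.96 with doxycycline, against 13.37, 13.24 and 13.35 without it. No treated array reached the lowest untreated array of its own line. The differences were -0.43 (SE 0.10, limma adjusted p = 0.0202) for the shRNA-labelled line, beside -0.45 (SE 0.10, adjusted p = 0.0117) for the control line. The call in the shRNA-labelled line was lost without treated replicate 1 or 2 or untreated replicate 3 (adjusted p = 0.0543 to 0.0918). Median scaling lost it too (adjusted p = 0.120), as did fitting those groups alone (adjusted p = 0.0709) and averaging both probes (-0.38, adjusted p = 0.220).

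The light chains of SLC3A2 did not move as one. SLC7A8 was higher with doxycycline in both lines by nearly the same amount. It read 9.69, 10.16 and 9.66 in the shRNA-labelled line with doxycycline, against 8.96, 8.27 and 8.88 without it. The control line gave 10.76, 10.46 and 10.51 with doxycycline, against 9.67, 9.65 and 9.03 without it. Every treated array was above every untreated array of its line, and the untreated control line overlapped with the treated shRNA-labelled line. The differences were 1.13 (SE 0.22, adjusted p = 0.00741), which is 2.19-fold, for the shRNA-labelled line, beside 1.12 (SE 0.22, adjusted p = 0.00612), which is 2.18-fold, for the control line. These calls held under every alternative run and without any 1 array.

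SLC7A11 was detected on 7 of the 12 arrays and was highest in the untreated control line. It read 6.21, 6.61 and 6.58 in the control line with doxycycline, the first of these undetected, against 8.02, 7.36 and 7.59 without it. The difference was -1.19 (SE 0.22, adjusted p = 0.00427), or -0.43 with no background correction, and no treated array of that line reached the lowest untreated one. The shRNA-labelled line gave 6.18, 6.39 and 5.83 with doxycycline, all undetected, against 6.71, 6.01 and 6.51 without it, the second of these undetected. Those groups overlapped, and the difference of -0.28 (SE 0.22) did not pass (adjusted p = 0.482). SLC7A5 was detected on every array and did not pass in either line. It read 12.90, 12.51 and 13.15 in the shRNA-labelled line with doxycycline, against 13.22, 13.06 and 13.52 without it, a difference of -0.41 (SE 0.17, adjusted p = 0.153). Its control-line values were 12.58, 12.82 and 12.84 with doxycycline, against 13.08, 12.95 and 13.26 without it, a difference of -0.35 (SE 0.17, adjusted p = 0.199). The arrays of the control line did not overlap for SLC7A5, although the test was not passed.

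The cationic amino acid transporter SLC7A1 was lower with doxycycline in the control line, where it read 11.77, 11.98 and 11.79, against 13.10, 12.77 and 13.03 without it. The shRNA-labelled line read 12.34, 12.48 and 12.07 with doxycycline, against 12.54, 12.48 and 12.50 without it. The arrays of the control line were apart by far more than their spread, while those of the shRNA-labelled line overlapped. The differences were -1.12 (SE 0.13, adjusted p = 0.000318) in the control line, which held under every alternative run, and -0.21 (SE 0.13, adjusted p = 0.332) in the shRNA-labelled line.

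Of the neutral amino acid exchangers, SLC1A4 was lower with doxycycline in both lines and near the limit of detection. None of the 6 treated arrays detected it, at 6.0, 5.46 and 5.54 in the shRNA-labelled line and 5.57, 5.44 and 5.28 in the control line. Without doxycycline it read 6.78, 6.42 (undetected) and 6.87 in the shRNA-labelled line and 7.57, 6.87 and 7.17 in the control line. Since the treated groups lie below detection, the fold is a bound, the untreated mean over the mean, per treated array, of its own or the lowest detected signal, whichever is higher. This bound, like those given below for other genes, holds for background-corrected signals only. SLC1A4 was at least 1.17-fold lower in the shRNA-labelled line (adjusted p = 0.00624), where 2 of 3 untreated arrays detected it, and at least 1.68-fold lower in the control line (adjusted p = 0.000297). With no background correction SLC1A4 differed by -0.34 and -0.62, which are smaller in the control line than the bound of 0.75 and passed in both lines. SLC1A5 was detected on every array, at 12.55, 12.67 and 12.62 in the shRNA-labelled line with doxycycline, against 13.15, 12.71 and 12.81 without it. On the control-line arrays it read 12.73, 12.31 and 12.48 with doxycycline, against 13.05, 13.32 and 13.07 without it. Neither pair of groups overlapped, but only the difference in the control line passed, at -0.64 (SE 0.14, adjusted p = 0.0100), beside -0.27 (SE 0.14, adjusted p = 0.250) in the shRNA-labelled line.

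SLC38A2 passed in no comparison. It read 13.46, 13.62 and 13.12 in the shRNA-labelled line with doxycycline, against 13.40, 13.12 and 13.38 without it, a difference of 0.10 (SE 0.15, adjusted p = 0.751). The 6 control-line arrays read 13.52, 13.30 and 13.22 with doxycycline, against 13.88, 13.60 and 13.47 without it, a difference of -0.30 (SE 0.15, adjusted p = 0.212). Both pairs of groups overlapped.

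SLC38A4 lies at chr12:46764761-46832431, near SLC38A2 at chr12:46358188-46372773 (GRCh38.p14). In the shRNA-labelled line with doxycycline it read 6.35, 5.66 and 6.42, all undetected, against 7.73, 7.48 and 7.31 without it. For the control line the readings were 9.66, 8.90 and 9.34 with doxycycline, against 9.21, 9.30 and 9.22 without it. All 6 arrays of the control line were above all 6 of the shRNA-labelled line, and within the shRNA-labelled line all treated arrays were below all untreated ones. SLC38A4 was at least 2.06-fold lower with doxycycline in the shRNA-labelled line (adjusted p = 0.00228), while the control line differed by 0.06 (SE 0.22, adjusted p = 0.897). With no background correction the fall of SLC38A4 in the shRNA-labelled line was -0.46 and still passed. That size is smaller than the bound, which is 1.04 on the log2 scale. In the deposited intensities, before any normalization, its median was 285 in the shRNA-labelled line with doxycycline, against 445 without it. The same medians were 875 in the control line with doxycycline and 1044 without it.

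SLC6A20, at chr3:45755449-45796536, had the largest rise with doxycycline of the 10 genes in both lines. Its brightest probe read 9.17, 9.39 and 8.88 in the shRNA-labelled line with doxycycline, against 6.92, 5.73 (undetected) and 7.33 without it. Arrays of the control line read 9.60, 9.89 and 9.51 with doxycycline, against 7.70, 8.05 and 7.47 without it. No pair of the 4 groups overlapped, in the order control with doxycycline, shRNA-labelled with doxycycline, control without, shRNA-labelled without. The differences were 2.49 (SE 0.33, adjusted p = 0.000745), which is 5.61-fold, for the shRNA-labelled line, where 2 of 3 untreated arrays detected the gene, and 1.93 (SE 0.33, adjusted p = 0.00273), which is 3.81-fold, for the control line. These calls held under every alternative run, but the sizes were smaller under some. With no background correction they were 1.2 and 1.18, and with the mean of all kept probes 1.29 and 1.25.

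The start sites of the transporter genes were read for the motif TGATGNAA, the core of the composite site of ATF4 and a C/EBP factor, because many amino acid transporters are textbook targets of ATF4. RefSeq windows on GRCh38.p14, 250 bases before to 50 bases after a start, were given for 9 of the 10 genes, as 17 windows (not for SLC7A11). On either strand, TGATGNAA was found in 4 of the 17 windows, of SLC1A4, SLC1A5, SLC3A2 and SLC7A1, beside 3.62% of 35116 windows. By gene that is 4 of 9 genes, beside 4.46% of 27305 genes. Shares by gene, here and below, do not allow for the number of windows per gene. The sites are shown with 30 bases each, on the strand of the gene and 5′ to 3′, with the match in capitals. Starts are those of the windows, and for SLC1A4, SLC3A2 and SLC1A5 they lie inside the locus. The locus of SLC1A4 begins at chr2:64988479 and that of SLC3A2 at chr11:62856109.
SLC1A4, chr2:64989381-64989410, plus strand, 7 bases before the start, match on the opposite strand: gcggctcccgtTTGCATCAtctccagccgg
SLC3A2, chr11:62881719-62881748, plus strand, base 38 after the start, match on the opposite strand: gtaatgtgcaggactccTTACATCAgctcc
SLC7A1, chr13:29595663-29595692, minus strand, base 8 after the start: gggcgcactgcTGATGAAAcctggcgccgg
SLC1A5, chr19:46784893-46784922, minus strand, 97 bases before an alternative start: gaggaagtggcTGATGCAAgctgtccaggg
These 4 genes and SLC7A11 are the 5 that were lower with doxycycline in the control line, and SLC3A2 and SLC1A4 were lower in the shRNA-labelled line too. SLC7A11 had no window to search. With the mean of both probes the fall of SLC3A2 in the control line did not pass (-0.09, limma adjusted p = 0.798). Whether the motif has a part in these falls was not tested. A match is a description of these letters and not evidence of binding. The 250 bases before the SLC1A5 start that holds the match, chr19:46784815-46785064 on the minus strand, are given because this gene has several starts and only this window held the motif.
SLC1A5 upstream window: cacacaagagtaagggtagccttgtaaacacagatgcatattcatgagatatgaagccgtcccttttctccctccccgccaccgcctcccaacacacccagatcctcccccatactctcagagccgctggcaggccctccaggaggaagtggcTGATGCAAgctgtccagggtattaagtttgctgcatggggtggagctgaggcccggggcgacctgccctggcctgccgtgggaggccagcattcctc
The antioxidant response element core TGACNNNGC, bound by NFE2L2, was found in SLC1A5, SLC3A2, SLC7A1 and SLC7A5, 4 of 9 genes beside 16.1% of all genes, and shared no base with a TGATGNAA match. The cAMP response element TGACGTCA (2.25% of all genes) and the NR5A family motif CAAGGNCA (6.59% of all genes) were found in none of the 9, which says only that these letters are not in these windows.

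The next comparison asked whether the response to doxycycline differed between the lines, as the response in the shRNA-labelled line minus that in the control line. Of the 10 genes 1 passed, SLC7A1, beside 0.844% of all genes, 0.462% with a higher and 0.382% with a lower difference. Its fall with doxycycline was smaller in the shRNA-labelled line, and the responses differed by 0.91 (SE 0.18, 95% interval 0.52 to 1.30, limma adjusted p = 0.0446). This call rests on the arrays used. It was kept without treated replicate 3 of the shRNA-labelled line and lost when any other array was left out (0.81 to 1.02, adjusted p up to 0.116). It was also lost with median scaling (adjusted p = 0.276), with no detection filter and with the replicate number as a block. The direction was positive in every alternative.

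SLC38A4 had a fitted difference of responses of -1.42 (SE 0.31, 95% interval -2.10 to -0.74), which missed the threshold (adjusted p = 0.0593). It rests on a group in which the gene was undetected on all arrays, so its size is that of the fit and not a bound. It passed when detection on all 3 arrays of a group was asked for, and without treated replicate 3 of the shRNA-labelled line or treated replicate 2 of the control line. For SLC7A11 the difference was 0.91 (95% interval 0.23 to 1.59, adjusted p = 0.179) and for SLC1A4 it was 0.74 (0.13 to 1.35, adjusted p = 0.218), both with undetected groups. For the rises, the interval ran from -0.68 to 0.70 for SLC7A8 (adjusted p = 0.994) and from -0.45 to 1.58 for SLC6A20 (adjusted p = 0.605). These intervals do not show that the lines responded alike. For SLC3A2 the interval was -0.29 to 0.34, and for SLC7A5 it was -0.59 to 0.46.

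The last comparisons set the shRNA-labelled line against the control line under each treatment. With doxycycline 4 of the 10 genes passed, SLC7A1 higher and SLC7A8, SLC3A2 and SLC38A4 lower in the shRNA-labelled line, beside 22.6% of all genes, 10.9% higher and 11.8% lower. Without doxycycline 6 passed, all lower in the shRNA-labelled line, namely SLC7A1, SLC7A8, SLC7A11, SLC3A2, SLC38A4 and SLC6A20, beside 16.3% of all genes, 7.46% higher and 8.87% lower. The median differences of the 10 genes were -0.14 with and -0.48 without doxycycline, beside -0.00 and -0.01 for all genes. With median scaling the calls were 2 lower with doxycycline and 3 lower without it.

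SLC38A4 had the largest line difference of the 10 genes. In the background-corrected signals it was at least 7.15-fold lower in the shRNA-labelled line with doxycycline (means of 6.15 and 9.30, adjusted p = 3.62e-06). Without doxycycline, where all arrays detected it, it was lower, with a difference of -1.74 (SE 0.22, adjusted p = 0.000422). Both calls held under every alternative, and with no background correction the sizes were -1.48 and -0.97. The size with doxycycline was then smaller than the bound, which is 2.84 on the log2 scale. The line difference was thus also present without doxycycline. SLC7A11 without doxycycline differed by -1.25 (SE 0.22, adjusted p = 0.00331), with 2 of 3 arrays of the shRNA-labelled line detected, and this held under every alternative too, at -0.45 with no background correction.

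SLC3A2 was lower in the shRNA-labelled line, with differences of -0.43 (adjusted p = 0.0101) with doxycycline and -0.46 (adjusted p = 0.0117) without it, and its treated control arrays overlapped with its untreated shRNA-labelled arrays. SLC7A8 was lower too, with differences of -0.74 (adjusted p = 0.0331) with doxycycline and -0.75 (adjusted p = 0.0411) without it. SLC7A1 turned its order, at 0.45 (adjusted p = 0.0240) with doxycycline and -0.46 (adjusted p = 0.0291) without it. SLC6A20 was lower without doxycycline, with a difference of -1.08 (adjusted p = 0.0437), or -0.62 without the undetected array, replicate 2, where the call was lost. With doxycycline its difference of -0.52 did not pass (adjusted p = 0.285), although the groups did not overlap. These 4 genes lost calls when the processing changed. Both calls of SLC3A2 and of SLC7A1, and that of SLC7A8 without doxycycline, were lost with median scaling. With the mean of both probes SLC3A2 lost both calls, at -0.46 (adjusted p = 0.0949) with and -0.17 (adjusted p = 0.588) without doxycycline. In a fit of the compared groups alone SLC7A1 with doxycycline (adjusted p = 0.0598), and SLC7A8 (0.0806) and SLC6A20 (0.104) without it, missed the threshold. The untreated calls of SLC7A8 and SLC6A20 were also lost with no detection filter (adjusted p = 0.0574 and 0.0596) and when replicate numbers were blocked (0.0519 and 0.0686). With no background correction the untreated difference of SLC6A20 was -0.40, and with the mean of all kept probes -0.54. With doxycycline, SLC7A1 lost its call without replicate 1 or 2 of the shRNA-labelled line or 1 or 3 of the control line, and SLC7A8 without replicate 1 or 3 of the shRNA-labelled line or any of the control line. Without doxycycline, SLC7A1 lost its call without any replicate of the shRNA-labelled line or 1 or 3 of the control line. SLC7A8 lost it without untreated replicate 2 or 3 of the shRNA-labelled line, 1 or 2 of the control line, or 3 of the treated arrays. SLC6A20 lost it without untreated replicate 1 or 2 of either line, or 4 of the treated arrays.

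SLC7A5, SLC1A4, SLC1A5 and SLC38A2 passed in neither line comparison. With doxycycline their differences were 0.10 for SLC7A5, 0.11 for SLC1A5 and 0.05 for SLC38A2, and SLC1A4 was undetected in both groups. Without doxycycline they were 0.17 for SLC7A5, -0.51 for SLC1A4 (adjusted p = 0.0978), -0.26 for SLC1A5 and -0.35 for SLC38A2. The untreated arrays of the lines did not overlap for SLC38A2.

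**Figure D3:**
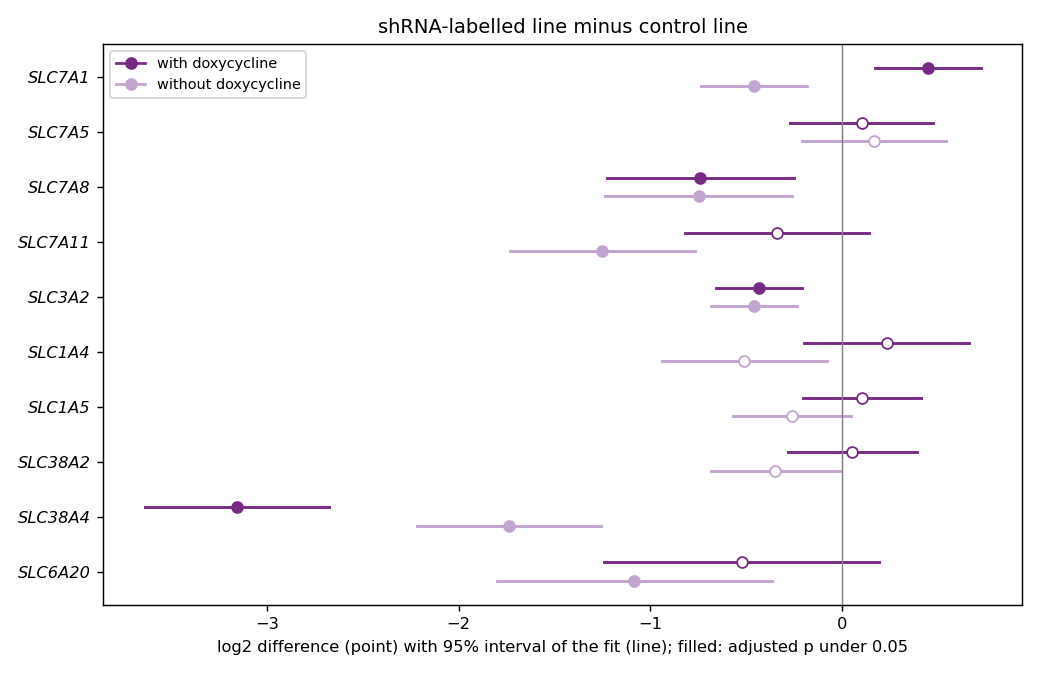
Log2 difference between the shRNA-labelled and the control line (x axis, point) with the 95% interval of the fit (line) for the 10 genes (y axis), dark for arrays with and pale for arrays without doxycycline, filled where the adjusted p was under 0.05. SLC38A4 lies farthest left, at -1.74 without doxycycline and, as a fitted size against an undetected group, -3.16 with it, and SLC7A1 lies on opposite sides of 0, at 0.45 and -0.46.

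SLC3A2, SLC6A20 and SLC7A8 had more than 1 probe, and the probes of a gene did not always move together. The dimmer probe of SLC3A2, ILMN_1679041, differed by -0.34 (SE 0.32, adjusted p = 0.607 over 22417 probes) in the shRNA-labelled line and by 0.27 (SE 0.32, adjusted p = 0.647) in the control line. Over the same probes ILMN_1726456 passed in both lines (adjusted p = 0.0346 and 0.0206). The replicates of ILMN_1679041 were spread widely, between 9.21 and 10.60 in the untreated control line. The fall of SLC3A2 therefore rests on 1 of its probes, and with the mean of both the fall in the control line was -0.09 (adjusted p = 0.798).

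For SLC6A20, ILMN_1698585 passed in both lines over all probes (adjusted p = 0.00132 and 0.00429). ILMN_2324109 was higher with doxycycline by 1.22 (adjusted p = 0.0384) in the shRNA-labelled line and 1.48 (adjusted p = 0.0123) in the control line. It was detected on 4 of 12 arrays, 1 treated array of the shRNA-labelled line and all 3 treated arrays of the control line, so these sizes are those of the fit. ILMN_1687986 did not pass, at 0.17 (adjusted p = 0.765) and 0.34 (adjusted p = 0.422). The annotation assigns ILMN_2324109 to another transcript record of the gene than the other probes. Of SLC7A8, ILMN_1695093 and ILMN_1747397 were detected on 0 arrays, so the rise of SLC7A8 rests on ILMN_1807894 alone.

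**Figure D4:**
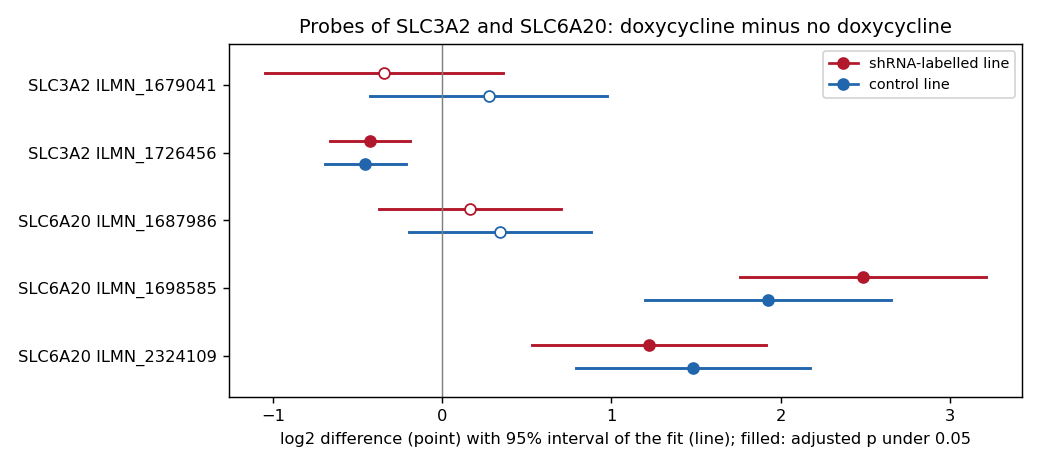
Log2 difference between doxycycline and no doxycycline (x axis, point) with the 95% interval of the fit (line) for the 5 kept probes of SLC3A2 and SLC6A20 (y axis), red for the shRNA-labelled line and blue for the control line, filled where the adjusted p over 22417 probes was under 0.05. ILMN_1679041 of SLC3A2 and ILMN_1687986 of SLC6A20 cross 0 in both lines, and the other 3 probes do not.

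The tested genes whose pattern over the 12 arrays was most like that of SLC38A4 were FREM2 (Pearson r = 0.984), APOA4 (0.983), SLC46A3 (0.983) and FGD3 (0.983). FREM2 averaged 6.81 in the shRNA-labelled line with doxycycline and 8.0 without it, against 9.22 and 9.33 in the control line. APOA4, an apolipoprotein of enterocytes, averaged 8.01 in the shRNA-labelled line with doxycycline and 8.75 without it, against 9.98 and 10.02 in the control line. Those most like SLC6A20 were GBP2 (0.982), COXFA4L3 (0.968), UBASH3B (0.968) and PLEKHA4 (0.965). GBP2, an interferon-inducible GTPase, averaged 8.86 in the shRNA-labelled line with doxycycline against 7.04 without it, and 9.39 in the control line with doxycycline against 7.83 without it. The 12 arrays share 1 chip and fall into 4 groups, so these coefficients describe the group pattern and carry no test.

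Of 41 other amino acid transporter genes listed, 27 were tested. SLC6A14, SLC6A19 and SLC7A7 were among those not tested. In the shRNA-labelled line 4 passed with doxycycline, SLC43A2 and SLC1A7 higher and SLC6A9 and SLC38A10 lower, with a median of -0.18, beside 11.5% of all genes passing. For the control line 10 passed, 3 higher and 7 lower, with a median of -0.04, beside 16% of all genes. SLC6A9, a glycine transporter, had the largest fall of the list in both lines. It was at 7.69 ± 0.06 (SD, n = 3) in the shRNA-labelled line with doxycycline, against 8.85 ± 0.09 without it (difference -1.16, limma adjusted p = 6.25e-05). In the control line SLC6A9 was at 7.77 ± 0.12 with doxycycline, against 9.57 ± 0.08 without it (difference -1.81, adjusted p = 3.23e-06). SLC43A2 (LAT4), which releases branched-chain amino acids from epithelial cells, rose by 0.95 (adjusted p = 0.00258) in the shRNA-labelled line and by 1.02 (adjusted p = 0.00150) in the control line.

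The glutamine transporters SLC38A1 and SLC38A3 were lower with doxycycline in the control line, with differences of -0.57 (adjusted p = 0.00754) and -0.95 (adjusted p = 0.00920). SLC3A1 and SLC7A9, the heavy and light chain of the apical cystine carrier, were named after their values were seen. In the control line SLC3A1 rose by 0.58 (adjusted p = 0.00997) and SLC7A9 differed by -0.53 (adjusted p = 0.0360), while neither passed in the shRNA-labelled line (-0.22 and -0.18). No other transporter passed in the difference of responses by limma. Of the 27 tested, 8 had an unadjusted p under 0.05 there, beside 1999 of all 12566 genes. The count passing after adjustment, 0 in the main fit, was 2 with no background correction. It was 1 with detection on all 3 arrays of a group or without treated replicate 3 of the shRNA-labelled line. The count in the control line was 5 without untreated replicate 1, 6 without untreated replicate 2 or treated replicate 3, and 5 with median scaling. The count in the shRNA-labelled line was 2 with median scaling, with the mean of all probes, and without treated replicate 1 or 2 or untreated replicate 3.

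**Figure D5:**
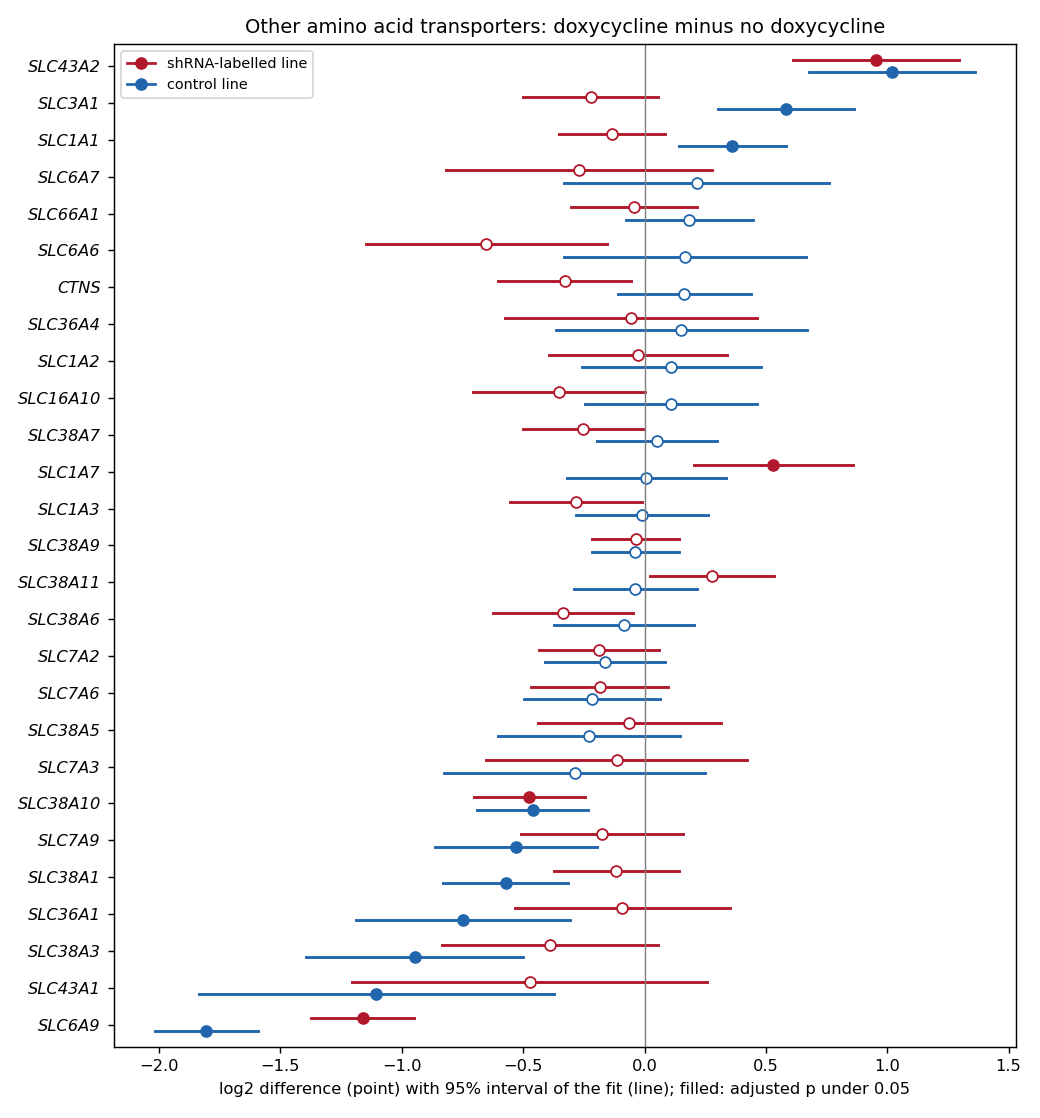
Log2 difference between doxycycline and no doxycycline (x axis, point) with the 95% interval of the fit (line) for the 27 other amino acid transporter genes tested (y axis, ordered by the control line), red for the shRNA-labelled line and blue for the control line, filled where the adjusted p was under 0.05. SLC43A2 lies at 0.95 and 1.02 and SLC6A9 at -1.16 and -1.81.

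Between the lines, 11 of the 27 other transporters passed with doxycycline, 3 higher and 8 lower in the shRNA-labelled line, and 6 passed without it, 1 higher and 5 lower. Of all genes 22.6% passed with and 16.3% without doxycycline. SLC38A3 averaged 6.97 in the shRNA-labelled line, against 8.42 in the control line, with doxycycline (difference -1.45, adjusted p = 0.000442). Without doxycycline SLC38A3 averaged 7.36 in the shRNA-labelled line, against 9.37 in the control line (difference -2.01, adjusted p = 9.49e-05). The lysosomal transporters SLC38A7 and SLC38A9 were also lower in the shRNA-labelled line with doxycycline (-0.92 and -0.61) and without it (-0.62 and -0.61). SLC1A1, a glutamate transporter, was lower with doxycycline, with a difference of -0.90 (adjusted p = 9.32e-05). With median scaling the count without doxycycline was 3.

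Genes that sense amino acids or act on mTORC1, the kinase complex that drives protein synthesis when amino acids are plentiful, were read from a list of 35, of which 33 were tested. With doxycycline 2 passed in the shRNA-labelled line, both lower, beside 11.5% of all genes. They were EIF4EBP1, a repressor of translation (-0.72, adjusted p = 0.00504), and SESN3 (-0.58, adjusted p = 0.0237). In the control line 6 passed, beside 16% of all genes, 1 higher and 5 lower, among them DDIT4, an inhibitor of mTORC1 (-2.72, adjusted p = 2.70e-06), EIF4EBP1 (-1.13, adjusted p = 0.000379), the leucine sensor SESN2 (-0.90, adjusted p = 0.0148) and MIOS (-0.34, adjusted p = 0.0331). The count of 6 was 3 with median scaling, with no detection filter and in a fit of the compared groups alone. It was 2 without treated replicate 3 or untreated replicate 2 and 3 without untreated replicate 1. The count of 2 in the shRNA-labelled line was 1 without treated replicate 1 or 2 or untreated replicate 2 or 3.

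DDIT4 was the 1 gene of that list that passed in the difference of responses, beside 0.844% of all genes. It averaged 12.47 ± 0.09 (SD, n = 3) in the shRNA-labelled line with doxycycline, against 12.52 ± 0.25 without it. In the control line it averaged 10.42 ± 0.14 with doxycycline, against 13.13 ± 0.13 without it. The difference of responses was 2.66 (SE 0.19, limma adjusted p = 0.000159) and held under all 19 alternatives. SLC7A1 has the same direction of difference at a smaller size.

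Of 20 regulators of the amino acid response and related transcription factors, 18 were tested. With doxycycline NR5A2 alone passed in the shRNA-labelled line, beside 11.5% of all genes. NR5A2 and CEBPB, a C/EBP factor (-0.53, adjusted p = 0.00504), passed in the control line, beside 16%. With no background correction these counts were 3 and 5. In the difference of responses 0 passed by limma. Of the 18, 5 had an unadjusted p under 0.05 there, beside 1999 of all 12566 genes. Between the lines with doxycycline MYC was higher in the shRNA-labelled line (0.75, adjusted p = 0.000194), and NR5A2 (-0.38, adjusted p = 0.0216) and DDIT3 (-0.42, adjusted p = 0.0444) were lower, a count of 3 that was 1 without treated replicate 2 of the shRNA-labelled line or in a fit of those groups alone, and 6 with no background correction. Median scaling lost the call of NR5A2 (adjusted p = 0.169), as did fitting those groups alone and leaving out treated replicate 1 or 2 of the shRNA-labelled line or 1 of the control line (adjusted p = 0.0657 to 0.0813). Without doxycycline 7 passed, 3 higher and 4 lower in the shRNA-labelled line, among them NFE2L2 (0.59, adjusted p = 0.00724), MYC (0.46, adjusted p = 0.00755), CEBPB (-0.42, adjusted p = 0.0159) and PPP1R15A (0.41, adjusted p = 0.0173). Of all genes 22.6% passed between the lines with doxycycline and 16.3% without it. The count of 7 was 2 to 4 without replicate 1, 2 or 3 of the untreated shRNA-labelled line or replicate 1 of the untreated control line, and 1 with median scaling.

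Of 11 genes of glutathione and cysteine metabolism, the pathway that uses the cystine brought in by SLC7A11, 9 were tested. In the control line 3 passed with doxycycline, all lower, beside 8.11% of all genes. They were the transsulfuration enzymes CBS (-0.98, adjusted p = 0.000804) and CTH (-0.75, adjusted p = 0.00851), and CHAC2, at least 1.29-fold lower (adjusted p = 0.0398) with 2 of 3 untreated arrays detected. In the shRNA-labelled line 0 passed by limma, beside 11.5% of all genes. There 0 had an unadjusted p under 0.05, beside 3215 of all 12566 genes. In the difference of responses 0 passed by limma, and 1 passed with no background correction or with detection on all 3 arrays of a group. In the main fit of that comparison 2 of the 9 had an unadjusted p under 0.05, beside 1999 of all 12566 genes. Without doxycycline CTH (-0.77, adjusted p = 0.00772) and TXNRD1, a thioredoxin reductase (-0.58, adjusted p = 0.00783), were lower in the shRNA-labelled line. With doxycycline CBS was higher (0.51, adjusted p = 0.0176) and TXNRD1 lower (-0.39, adjusted p = 0.0336) in the shRNA-labelled line. Between the lines 22.6% of all genes passed with and 16.3% without doxycycline. The count of 2 with doxycycline became 0 without treated replicate 2 of either line or with median scaling, and 1 without treated replicate 1 of either line or 3 of the control line.

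Of 8 partners of the transporters and genes of their turnover, 7 were tested. Doxycycline gave 1 call per line among these 7, beside 11.5% of all genes for the shRNA-labelled and 16% for the control line. The difference of responses gave 1, beside 0.844% of all genes. Line comparisons gave 2 with doxycycline, beside 22.6% of all genes, and 2 without it, beside 16.3%. CD44, a surface glycoprotein known to hold SLC7A11 at the membrane, was higher with doxycycline in the shRNA-labelled line (0.86, adjusted p = 0.00860), a call lost with the mean of all its probes. CLTRN, a partner of SLC6 transporters in the kidney, was higher with doxycycline in the control line (0.56, adjusted p = 0.0490). That call was lost with median scaling, and without replicate 1 or 3 of the treated or 2 of the untreated shRNA-labelled line, or replicate 1 of the treated or 1 or 2 of the untreated control line. CD44 passed in the difference of responses too (1.40, adjusted p = 0.0339), a call lost with median scaling and the mean of all probes. It was kept without treated replicate 3 of the shRNA-labelled line, treated replicate 2 or untreated replicate 3 of the control line, and lost without any other array. Between the lines with doxycycline CD44 was higher (0.83, adjusted p = 0.00505) and CLTRN lower (-0.78, adjusted p = 0.00692) in the shRNA-labelled line. Without doxycycline NEDD4, a ubiquitin ligase (-0.48, adjusted p = 0.0308), and CD44 (-0.57, adjusted p = 0.0439) were lower there. Neither passed with median scaling or without untreated replicate 1 of either line.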

How the data were processed

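Labelled cRNA was put on Illumina bead arrays by the authors, per the labels. Their non-normalized deposited table lists, per the file headers, a linear intensity and a detection p-value for each probe on each array. The submitters' processing notes name GenomeStudio and lumi without version. The deposited value table holds values close to a log2 scale with a median of 6.64 in each column, as read from the values, and served as an alternative, since its background step is not stated in the labels. Each of the 12 arrays matched its own column best, and no arrays were duplicates. All arrays shared 1 chip.

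Intensities were background-corrected with limma 3.58.1 in R 4.3.3 (normal-exponential model, negative controls inferred from detection p-values, offset 16), taken to log2 and quantile-normalized. Probe symbols came from the platform annotation, where 30109 of 47314 probes had 1 symbol, 8 several and 17197 none, and were updated through a RefSeq table (30070 matched). Probes with a detection p-value under 0.05 on at least 3 of 12 arrays were kept (22417), and the brightest stood for its gene (12566 genes). Group means over 12 arrays were fitted by lmFit and eBayes of limma for 5 contrasts, two-sided, with Benjamini-Hochberg adjustment over all genes and a threshold of 0.05. It was tested on simulated data. The number of arrays limits the precision.

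The 10 genes, the gene lists and the tests were chosen with earlier results of these data known. Of each list the text names at most 4 genes per comparison, those with the smallest adjusted p past the threshold, and 2 further transporters that the text says were named after their values were seen. The main fit used no pairing by replicate number. Correlations of same-number deviations were -0.19 to 0.23, above 0.1 in 6 of 18 pairs. They do not settle whether the numbers pair the samples. Alternatives changed the background correction, scaling, detection filter, probe summary, source of values, samples in the fit and the replicate block, or left out each array. Promoter windows and coordinates are from RefSeq, GRCh38.p14.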

Additional observations from a re-analysis of the deposited data

Results flagged for a closer look

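Among the genes named above, 3 had responses to doxycycline that differed between the shRNA-labelled and the control line by a test of the difference itself. Of all genes 0.844% passed that test. Many of the genes were named because they passed a comparison, so the count of 3 describes them and is not a test. For DDIT4 the difference was 2.66 on the log2 scale (limma adjusted p = 0.000159), and it passed under all 19 alternatives (2.46 to 2.75). For CD44 it was 1.40 (adjusted p = 0.0339), and it passed under 8 of 19 alternatives (0.79 to 1.56, adjusted p up to 0.118). For SLC7A1 it was 0.91 (adjusted p = 0.0446), and it passed under 5 of 19 alternatives (0.81 to 1.02, adjusted p up to 0.276). The groups of 3 arrays were too small for a test of single outlying samples.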

How the results depend on the processing

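Of the 23 calls of transporter genes, 12 held under every alternative, 11 were lost under at least 1, and none changed sign. Of the 27 uncalled differences 3 passed under some alternative. Without each array in turn, the numbers of the 10 genes called were 4 to 5 for doxycycline in the shRNA-labelled line, 7 to 7 in the control line, 0 to 2 for the difference of responses, 2 to 4 for the lines with and 3 to 6 without doxycycline. The numbers of all genes called were 791 to 1557, 1196 to 2097, 15 to 204, 2098 to 2923 and 1144 to 2174 in the same order. With median scaling they were 787, 1027, 57, 1670 and 984, and 0, 2 and 3 of the 10 genes passed in the difference of responses and in the lines with and without doxycycline. In the difference of responses no background correction gave 318 genes, detection on all 3 arrays of a group 170 genes and 2 of the 10, and no filter 43 genes and 0 of the 10. A fit of the compared groups alone gave 958 genes for doxycycline in the shRNA-labelled line. Blocking on the replicate number, 5, 7, 0, 4 and 5 of the 10 genes passed, and between the lines without doxycycline SLC1A4 gained a call (adjusted p = 0.0386) while SLC7A8 (0.0519) and SLC6A20 (0.0686) lost theirs, as SLC7A1 did in the difference of responses. Of the uncalled differences 7 changed sign. In the difference of responses SLC7A8 became -0.10 with no background correction and -0.021 in the authors' deposited table, and SLC3A2 became -0.11 with median scaling and -0.30 with the mean of all probes. SLC38A4 for doxycycline in the control line became -0.048 with median scaling. Without single arrays the ranges were -0.21 to 0.22 for SLC7A8, -0.033 to 0.095 for SLC3A2 and -0.21 to 0.11 for SLC7A5 in the difference of responses, and -0.12 to 0.26 for SLC38A4 with doxycycline in the control line. They were -0.012 to 0.24 for SLC38A2 with doxycycline in the shRNA-labelled line, and -0.056 to 0.19 for SLC38A2 and -0.045 to 0.28 for SLC7A5 between the lines with doxycycline. Where no cause follows from the alternative itself, the cause was not tested. Signals near background limit SLC1A4, SLC7A11, SLC38A4 and SLC6A20.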
